A study of Mus musculus with 6 samples.

Results

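The genes described here are those by which parietal epithelial cells of the kidney are known. They were chosen by name, as 10 genes (Cldn1, Pax2, Pax8, Cd44, Cd9, Krt8, Krt18, Scin, Cdh6 and Cp), and each was followed through all probe sets that the array annotation pairs with that gene alone. A probe set is the group of short probes that measures 1 transcript or part of it. The rule gave 26 of the 45101 probe sets on the array. They cover 9 of the 10 genes, and Pax2 was not analysed here because no probe set was paired with it alone. RNA was profiled in glomeruli taken from the kidneys of 3 dendrin knockout mice and 3 wild type littermate controls, all 13 months old, on 1 Affymetrix array per mouse. In the knockout line the whole coding sequence of dendrin was replaced by a cassette encoding eGFP and neomycin resistance, so the gene is missing from every cell of the animal and not from podocytes alone. The labels give the genetic background of both groups as 129S6SvEv/C57BL6, the strain of the targeted stem cells, and per the study's methods the line had been crossed back to C57BL/6 for several generations.

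Parietal epithelial cells form the flat epithelium that lines the inside of Bowman's capsule, around the glomerular tuft. They are joined by tight junctions that contain claudin-1, and they keep the transcription factors PAX2 and PAX8 of the embryonic kidney into adult life. In glomerular disease they can become activated, carry CD44 and CD9, move onto the tuft and take part in crescents and scars. Several of these genes are not restricted to the capsule: leukocytes carry CD44, many cell types carry CD9, and keratins, cadherin-6 and PAX8 are also found in tubule cells. RNA was taken from whole glomeruli, so fewer cells of a type and less RNA per cell cannot be told apart.

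Values are given as GCRMA values, which are background-corrected signals on the log2 scale, where a difference of 1 is a doubling. A probe set with a mean under log2 4 over the 6 arrays is called dim. This holds for 25482 probe sets, 56.5% of the array, and there the signal is hard to tell from background. Ddn, the gene of dendrin, checked the labels: it stood at 3.80, 3.81 and 3.80 in knockout mice and at 12.22, 12.81 and 12.31 in control mice. The mouse labelled control 2 stood apart from the other 5 in genes of other cell types. On this array the median of 6 markers of distal nephron segments, from the loop to the collecting duct, was 2.52 above the mean of the other arrays, that of 6 proximal tubule markers was 1.44 above it, and the median of 12 leukocyte markers was -1.93 relative to it. Differences of the members are therefore given with and without control 2, and for several other genes the value without a single array is given too. The part of these cells in any difference was not tested.

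Claudin-1 is the member whose knockout and control values did not overlap, and the stretch of DNA in front of its gene is shown for that reason. Cldn1 lies on the minus strand of chromosome 16, at chr16:26356645-26371839 in GRCm38.p6. The 250 bases before its start, from the RefSeq promoter sequences, span chr16:26371840-26372089, and the capitals mark the GC box GGGCGG.
Cldn1 upstream: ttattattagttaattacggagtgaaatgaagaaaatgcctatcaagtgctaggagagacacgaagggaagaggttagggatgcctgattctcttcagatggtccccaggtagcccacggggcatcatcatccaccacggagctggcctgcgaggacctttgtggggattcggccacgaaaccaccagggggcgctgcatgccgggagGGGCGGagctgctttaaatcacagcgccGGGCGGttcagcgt
The GC box, the letters known from binding sites of SP1, was found 2 times, with its first base 42 and 14 bases before the start. Searched on both strands, it occurs in 32.7% of 32851 mouse promoters of the same length. The E-box CAGGTG, known from sites of the SNAIL repressors, was not found in this window and occurs in 17.2% of promoters. The TATA box letters TATAAA were not found either and occur in 12.4%. None of these motifs overlaps another in this window. The GC content was 55.6%, against a median of 52.4% over all promoters. No array value bears on this window, and the letters are given as a description.

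Of the 26 probe sets, 13 were not dim, and these belong to Cldn1, Cd44, Cd9, Scin and Cp. The other 13 were dim, and 10 of them stayed between 2.20 and 2.23 with a spread over the 6 arrays of at most 0.1. The 8 probe sets of Pax8, Krt8, Krt18 and Cdh6 were all dim, with values from 2.20 to 2.76. So 5 of the 10 genes gave a signal that could be compared, and 4 sat at or near the bottom of the scale on every array. The members with a signal to compare were Cldn1, Scin, Cd44, Cd9 and Cp. Which cells gave this signal was not tested, and Cd44, Cd9 and Cp are also known from other cells. Pax8, Krt8, Krt18 and Cdh6 stayed within 2.20 to 2.76 on control 2 too. Umod, a tubule marker, stood at 13.13 on that array and at 11.11 to 11.68 on the others. The values of these 4 dim genes therefore do not show whether parietal cells were present.

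**Figure D1:**
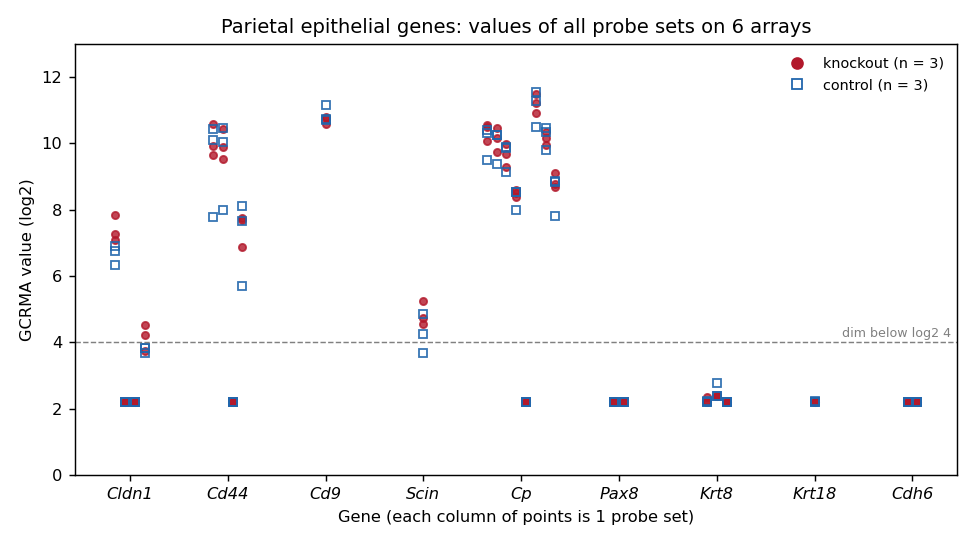
GCRMA values (log2) of all 26 probe sets of the 9 measured genes, with 1 column of points per probe set, filled circles for the 3 knockout arrays and open squares for the 3 control arrays. The dashed line is log2 4, under which a probe set is dim: all points of Pax8, Krt8, Krt18 and Cdh6 lie between 2.20 and 2.76.

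Claudin-1 is a four-pass membrane protein of tight junctions that seals the space between neighbouring epithelial cells. Its probe set 1437932_a_at stood at 7.85, 7.27 and 7.08 in knockout glomeruli and at 6.90, 6.34 and 6.75 in control glomeruli. Every knockout array lay above every control array, with knockout 1 the highest of all and control 2 the lowest. Knockout glomeruli had a mean of 7.40 ± 0.40 (SD, n = 3) and control glomeruli one of 6.66 ± 0.29 (SD, n = 3). The difference was 0.74 on the log2 scale with a standard error of 0.28, a 1.67-fold higher value, and its 95% interval ran from -0.01 to 1.49. With limma, fitted on all probe sets, the unadjusted p was 0.0515, and the value adjusted over the array was 1. The two-sided exact permutation test over the 6 arrays gave p = 0.1, the smallest that 3 against 3 arrays allow. Among all probe sets that were not dim, 13.7% had groups that did not overlap and 8.03% had all knockout arrays above all control arrays, against 1 of 13 for the members.

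The study's criterion was a fold over 1.5 in either direction with an unadjusted p under 0.05. With limma's p, 0 of the 26 member probe sets met it, against 0.18% of the array, and 0 had an unadjusted p under 0.05. With the p of SAM, the permutation method that the study used, 1 of the 26 met it, against 0.235% of the array. That probe set was Cldn1 1437932_a_at, with p = 0.0342 pooled over the 20 permutations of the 6 arrays. Its difference without control 2 was 0.58 with a standard error of 0.29 (limma, unadjusted p = 0.133). Without the other arrays in turn it ranged from 0.51, without knockout 1, to 0.90, without knockout 3.

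A second probe set of Cldn1, 1450014_at, was dim by its mean, with 4.53, 4.23 and 3.75 in knockout and 3.82, 3.68 and 3.83 in control glomeruli. Here knockout 1 and knockout 2 lay above all control arrays, while knockout 3 lay among them. The difference was 0.39 with a standard error of 0.22 (limma, unadjusted p = 0.148), and 0.34 without control 2. The remaining Cldn1 probe sets, 1438850_at and 1438851_x_at, stood at 2.20 on all arrays.

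PAX8, a paired-box transcription factor of the developing kidney and thyroid, is kept in adult parietal and tubule cells. Pax8 lies at chr2:24420551-24475599, and both its probe sets stood between 2.21 and 2.23 on all 6 arrays. The keratins KRT8 and KRT18 pair with each other to form the intermediate filaments of simple epithelia. The 3 Krt8 probe sets and the 1 of Krt18 were dim. Of the Krt8 probe sets, 1423691_x_at stood at 2.76 on control 2 and at 2.37 to 2.38 on the others, and 1420647_a_at at 2.35 on knockout 1 and at 2.21 to 2.22 on the others. Cadherin-6, a cell adhesion molecule of renal vesicles and proximal tubules, had its 2 probe sets at 2.20 throughout, and Cdh6 lies at chr15:13028699-13176407. Krt8 and Krt18 lie 3.19 and 3.22 Mb from Ddn on chromosome 15, at chr15:101996711-102004342 and chr15:102028216-102032026. Because these values sit at the lowest level of the array, a decrease could not be measured for Pax8, Krt8, Krt18 or Cdh6. No array rose above 2.76 for these genes, so no rise out of background was seen in either group. A rise that stayed within background could not be seen.

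CD44 is the receptor for hyaluronan and a marker of activated parietal cells, and it is also carried by most leukocytes. Cd44 lies on chromosome 2, at chr2:102811141-102901669. Its probe set 1423760_at stood at 9.92, 9.66 and 10.59 in knockout and at 10.09, 7.78 and 10.42 in control glomeruli. All arrays but control 2 lay within the same range, and control 2 was far below them. The difference was 0.63 with a standard error of 0.84 and a 95% interval from -1.65 to 2.91. Without control 2 it was -0.20 with a standard error of 0.36.

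In both other Cd44 probe sets that were not dim, control 2 was again the lowest array. Probe set 1434376_at stood at 9.89, 9.53 and 10.43 in knockout and at 10.05, 8.00 and 10.46 in control glomeruli, a difference of 0.44 (standard error 0.78). Probe set 1452483_a_at stood at 7.69, 6.88 and 7.76 in knockout and at 7.65, 5.71 and 8.12 in control glomeruli, a difference of 0.28 (standard error 0.76). Without control 2 these differences were -0.31 (standard error 0.35) and -0.44 (standard error 0.39). Without control 3 the 3 differences were 1.12, 0.92 and 0.77. For all 3 probe sets, then, Cd44 was higher in knockout glomeruli with all arrays and lower without control 2. The unadjusted p (limma) was 0.494 to 0.727 with all arrays and 0.328 to 0.623 without control 2. Control 2 lay below the mean of the other arrays in each, by differences of -2.36 to -1.91. The fourth probe set, 1443265_at, stood at 2.20 on all arrays.

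The leukocyte markers moved in the same direction as Cd44 on control 2. Of the 14 markers 12 were not dim, and all 12 had their lowest value there. The dim ones were Cd3e and Cd79a, which define T and B cells. The log2 of the list's summed signal was 13.34 on control 2, and it was 14.82 to 15.55 on the knockout arrays and 15.17 and 15.56 on the other control arrays. For example, Cd74, the invariant chain of class II antigen presentation and also a partner of CD44 in a receptor, stood at 11.65 on control 2 and at 12.80 to 13.39 on the others. The median difference of the 12 markers between knockout and control was 0.55 with all arrays and -0.20 without control 2, which has the same sign as that of Cd44 in both cases. Whether leukocytes account for the Cd44 values was not tested.

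CD9 is a tetraspanin that organizes integrins and growth factor receptors at the cell surface and is carried by parietal cells as they become activated. Cd9 lies on chromosome 6, at chr6:125460266-125494760, and has 1 probe set. It stood at 10.80, 10.60 and 10.77 in knockout and at 10.74, 10.71 and 11.17 in control glomeruli. The groups overlapped, and control 3 was the highest array. The difference was -0.15 with a standard error of 0.15 and a 95% interval from -0.57 to 0.27. It was -0.23 without control 2 and -0.00 without control 3. Unlike Cd44, Cd9 did not stand apart on control 2, which was -0.10 from the mean of the other arrays.

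Scinderin, the product of Scin, cuts and caps actin filaments in a calcium-dependent way. Scin lies on chromosome 12, at chr12:40059769-40134228, and has 1 probe set, with a mean of 4.55, just above the limit for dim signals. It stood at 4.73, 4.55 and 5.23 in knockout and at 4.26, 4.86 and 3.68 in control glomeruli. The groups overlapped through control 2, which was the highest control array and lay above knockout 1 and knockout 2. The difference was 0.57 with a standard error of 0.38, a 1.48-fold higher value, with a 95% interval from -0.47 to 1.60 (limma, unadjusted p = 0.209). Without control 2 it was 0.86 (limma, unadjusted p = 0.0696), without control 3 it was 0.27, and without knockout 3 it was 0.37. Single mice thus moved the difference of Scin by more than 1.5 times without turning its direction.

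**Figure D2:**
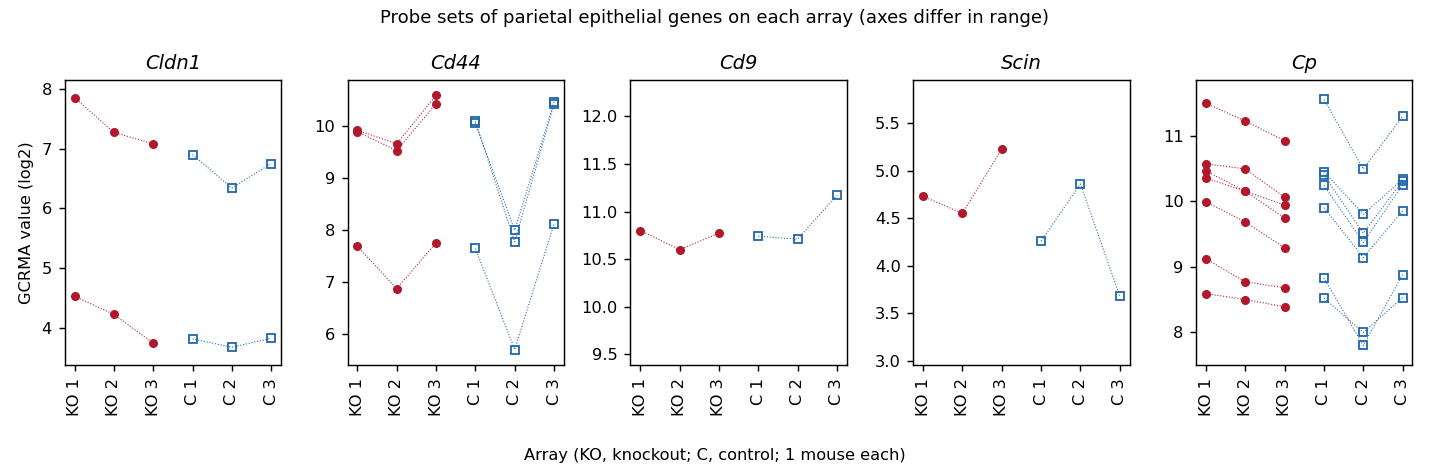
GCRMA values (log2) of the 13 member probe sets that were not dim and of Cldn1 1450014_at on each array, with filled circles for knockout (KO) and open squares for control (C) mice. Dotted lines only join the values of 1 probe set within a group and imply no order of mice. Control 2 is the lowest point of every Cd44, Cp and Cldn1 probe set shown, and the 3 knockout points of the upper Cldn1 probe set lie above its control points.

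Ceruloplasmin, the product of Cp, is a copper-containing ferroxidase that oxidizes iron so that it can leave cells and be loaded on transferrin. Cp lies on chromosome 3, at chr3:19956933-20009750, and is measured by 8 probe sets, of which 7 were not dim. Probe set 1448734_at stood at 11.49, 11.22 and 10.92 in knockout and at 11.55, 10.49 and 11.29 in control glomeruli, a difference of 0.10 (standard error 0.35). Probe set 1455393_at stood at 9.12, 8.77 and 8.68 in knockout and at 8.83, 7.80 and 8.88 in control glomeruli, a difference of 0.36 (standard error 0.36). In both, the groups overlapped and control 2 was the lowest array.

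The differences of the 7 probe sets lay between -0.04 and 0.36, with standard errors of 0.18 to 0.36, and 6 were higher in knockout glomeruli. Without control 2 they lay between -0.24 and 0.02, and 5 were lower. Other single mice moved them too: without control 1 the difference of 1448734_at was 0.32, and without knockout 1 that of 1455393_at was 0.22. All 7 had their lowest value on control 2, -1.05 to -0.44 from the mean of the other arrays. Among the knockout arrays, knockout 1 was the highest and knockout 3 the lowest in all 7. These probe sets are paired with 1 gene and are no independent support for each other. The eighth, 1441326_at, stood at 2.20 on all arrays.

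**Figure D3:**
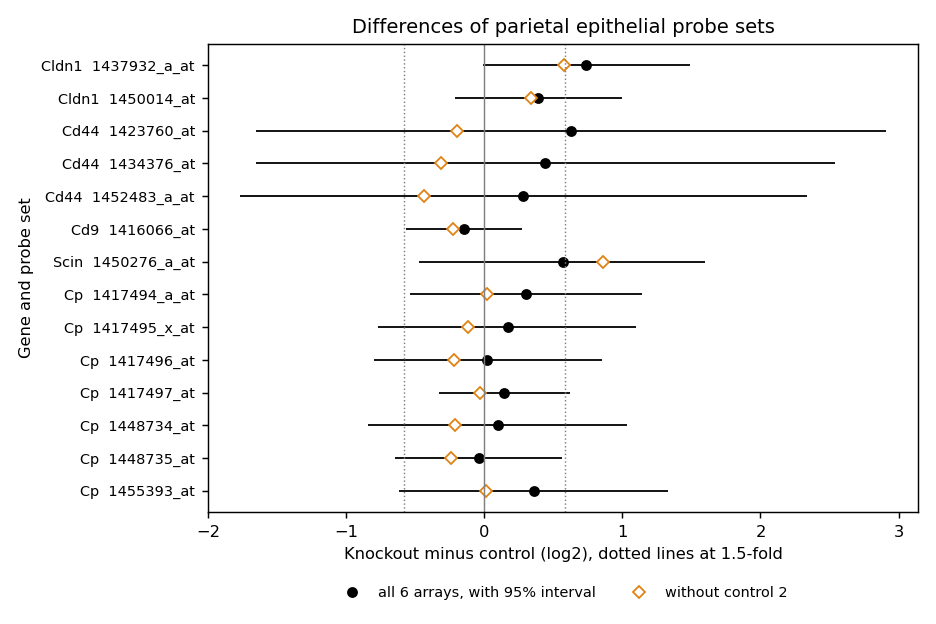
Differences between knockout and control glomeruli (log2) for the 13 member probe sets that were not dim and for Cldn1 1450014_at, as filled circles with the 95% interval over all 6 arrays and open diamonds without control 2. The dotted lines mark a 1.5-fold difference, and every interval includes 0, that of Cldn1 1437932_a_at from -0.01 to 1.49.

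Over the 13 member probe sets that were not dim, 11 were higher and 2 lower in knockout glomeruli, while 55.1% of all probe sets that were not dim were higher. Their median difference was 0.28, against 0.015 for all probe sets that were not dim. Without control 2 the counts turned to 4 higher and 9 lower, with a median of -0.20. Of the 13, 11 had their lowest value on control 2, which holds for 19.8% of all probe sets that were not dim, and the exceptions were Cd9 and Scin. Of these 13 probe sets, 10 belong to Cd44 and Cp, so the count over probe sets speaks mostly of those genes. After Benjamini-Hochberg adjustment of limma's p over the array, 0 members were under 0.05, against 0.00222% of probe sets, and the lowest adjusted p of a member was 1.

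**Figure D4:**
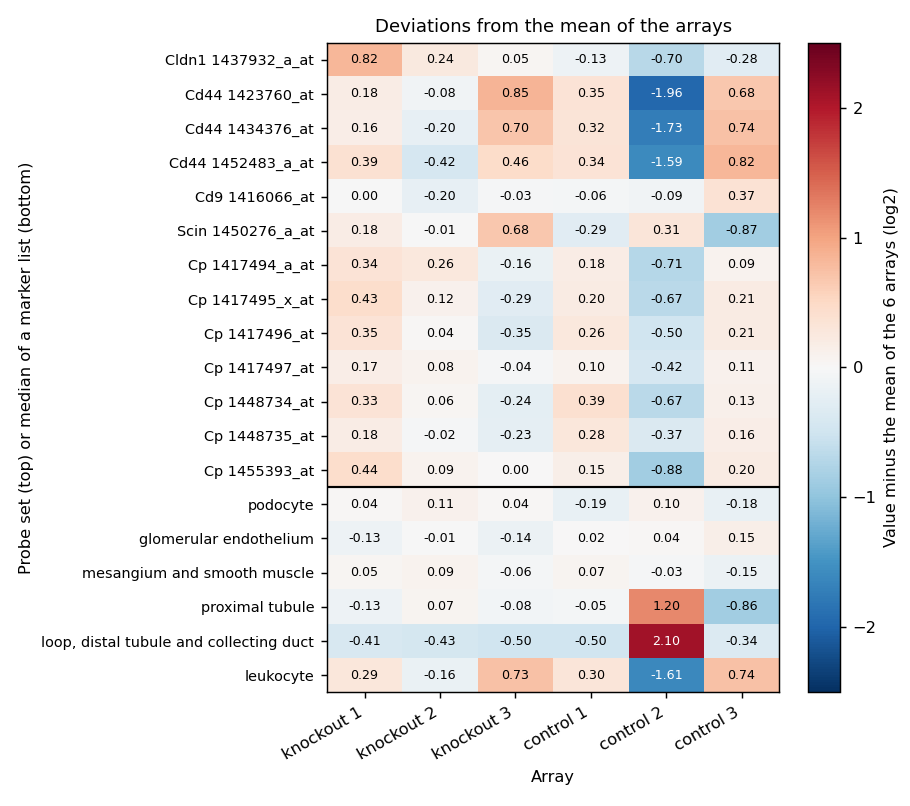
Value minus the mean of the 6 arrays (log2) for each member probe set that was not dim (above the line) and the median of each cell type marker list (below it), with 1 column per mouse. On control 2 the leukocyte median and the Cd44, Cp and Cldn1 probe sets are low (Cldn1 -0.70), while the tubule medians are high.

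The marker lists of the glomerulus itself had median differences from -0.17 to 0.14. Over all probe sets that were not dim, the median size of a difference was 0.09. Podxl and Synpo, which encode podocalyxin and synaptopodin of podocytes, stood at 15.17 to 15.31 and 13.78 to 14.08. The median difference was 0.14 for 7 podocyte genes, all of them higher in knockout, -0.17 for 8 endothelial genes, all of them lower, such as Emcn (endomucin) and Tek (the angiopoietin receptor), and 0.04 for 7 genes of mesangium and smooth muscle, 5 of them higher. The podocyte median was 0.253 without control 2 and 0.066 without control 3, and the endothelial one was -0.083 without control 3. In 4 of the 8 endothelial genes every knockout array lay below every control array, where groups that did not overlap in either direction made up 13.7% of the array's probe sets that were not dim. Of the mesangial and smooth muscle list 1 probe set met the criterion, that of Tagln, which encodes the smooth muscle actin-binding protein transgelin. Named after its values were seen, it stood at 10.52, 10.11 and 10.14 in knockout and at 9.38, 10.01 and 9.35 in control glomeruli, a difference of 0.68 (standard error 0.24) and of 0.89 without control 2. Acta2 and Myh11, further genes of contractile smooth muscle named in the same way, differed by 0.44 and 0.41, and by 0.59 and 0.78 without control 2. With all arrays their groups overlapped (limma, unadjusted p = 0.0717 and 0.354). The receptor gene Pdgfrb of mesangial cells differed by -0.05. The rest of this list that was not dim differed by -0.00 (Itga8), 0.01 (Gata3) and 0.04 (Des). The log2 of summed podocyte signal was 16.57 to 16.67 in knockout and 16.44 to 16.68 in control glomeruli. For the endothelium it was 15.77 to 15.88 and 15.89 to 15.97, ranges that did not overlap, and for mesangium and smooth muscle 14.97 to 15.07 and 14.92 to 15.09. The tubule lists were high on control 2. The summed proximal signal was 12.23 there and 10.08 to 11.58 on the others, and the distal one was 13.91 there and 11.66 to 12.07 on the others. Such sums weigh the brightest gene most, here Kap (11.74 on control 2) and Umod (13.13). Counted by gene, 5 of 6 proximal and 6 of 6 distal markers that were not dim were highest on control 2. The exception was Aqp1, at 9.02 there and 8.45 to 9.06 on the others. Of the tubule markers, Slc5a12, Cubn, Slc22a6 and Slc22a8 of the proximal tubule and Aqp2, Aqp3, Pvalb and Slc4a1 of distal segments were dim. The median difference was -0.18 for the proximal list and -0.78 for the distal one, and 0.51 and 0.08 without control 2. The part of any of these cell types in the member differences was not tested.

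Genes that work with the members were followed in 8 lists of 88 genes in all, of which 84 had a probe set and 60 were not dim. Of their 185 probe sets, 0 met the criterion with limma and 0 with SAM, against 0.18% and 0.235% of the array. By limma 7 had an unadjusted p under 0.05, which holds for 3.63% of the array, and 0 an adjusted one. Of the 60 genes, each taken by the probe set of highest mean, 27 were higher and 33 lower, with a median of -0.034. In 5% of the 60 genes the groups did not overlap, against 13.7% of all probe sets that were not dim. These 3 were Aldh1a2, higher in knockout, and Ncam1 and Flii, lower in knockout.

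Among 6 other genes of the parietal epithelium that were not dim, 1 was higher and 5 were lower, with a median of -0.11 that was -0.185 without control 2 and -0.013 without control 3. The higher one was Aldh1a2, which makes retinoic acid from retinal. It stood at 8.44, 7.81 and 7.70 in knockout and at 7.47, 7.47 and 7.56 in control glomeruli, a difference of 0.49 (standard error 0.23, limma, unadjusted p = 0.0923). It was 0.47 without control 2 but 0.26 without knockout 1. As with Cldn1, knockout 1 was the highest array and every knockout array lay above the controls. Ncam1, a neural cell adhesion molecule also known from a subset of parietal cells, stood at 7.51, 7.70 and 7.59 in knockout and at 7.87, 8.33 and 7.91 in control glomeruli. Its difference was -0.43 with a standard error of 0.15 (limma, unadjusted p = 0.0411) and -0.29 without control 2. Of its 7 probe sets 3 were not dim, and the other two of these, 1426864_a_at and 1450437_a_at, differed by -0.39 and -0.44, and by -0.10 and -0.26 without control 2.

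A few more genes of this list are named after their values were seen. Cd24a, a surface protein of renal progenitor-like parietal cells in human kidney, had differences of -0.22, -0.35 and -0.12 in its 3 probe sets. The first of these stood at 13.58, 13.74 and 13.62 in knockout and 13.77, 13.98 and 13.87 in control glomeruli, groups that did not overlap. Vcam1, an adhesion molecule for leukocytes that is also found on the capsule, had differences of -0.17, -0.10 and -0.24, and of -0.66, -0.59 and -0.88 without control 2. Without control 3 they were 0.16, 0.22 and 0.16. Neither gene met the criterion with all arrays.

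Most other tight junction genes were dim. Of 16 claudin and tight junction genes with a probe set, 6 were not dim, 3 of them higher and 3 lower, and Cldn2, Cldn3, Cldn4, Cldn7, Cldn10, Cldn16, Cldn19, Ocln, Tjp3 and Cgn were dim. Cldn8, a claudin of the distal nephron, stood at 6.84 on control 2 and at 3.71 on every other array, so its difference of -1.04 came from 1 mouse. Only through that mouse did its mean of 4.24 pass the limit for dim signals, and it is 1 of the 3 lower genes. Cldn5, the claudin of endothelium and podocytes, stood at 11.94, 12.17 and 12.15 in knockout and at 11.71, 12.42 and 11.78 in control glomeruli. Its difference of 0.12 (standard error 0.23) was 0.34 without control 2, where the groups no longer overlapped, and -0.01 without control 1.

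The keratin, intermediate filament and desmosome list held 8 genes that were not dim, with 2 higher and 6 lower and a median of -0.07, which was -0.128 without knockout 3 and -0.028 without knockout 1. Pkp2, a plakophilin of desmosomes, stood at 10.05, 10.13 and 10.28 in knockout and at 9.58, 10.07 and 9.58 in control glomeruli, a difference of 0.40 (standard error 0.17). Its groups overlapped through control 2, and without that array the difference was 0.57. Dsp, which encodes desmoplakin, differed by -0.40 with a standard error of 0.35, by -0.19 without control 2, by -0.18 without knockout 1 and by -0.68 without knockout 3. Among cadherins and catenins, 5 of 9 were higher, and their median of 0.015 was -0.093 without control 1. The largest difference in size, -0.86 for Cdh1 (E-cadherin), came from control 2 at 8.00 against 5.07 to 5.32 on the others, and without it the difference was 0.08. Cdh16, the cadherin of kidney tubules, likewise stood at 8.84 on control 2 and at 6.59 to 6.95 on the others.

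Of 5 renal developmental regulators beside the PAX genes, 4 were higher, with a median of 0.07. This median was 0.253 without control 2, 0.208 without knockout 1 and -0.058 without control 3. Wt1, the podocyte transcription factor, differed by 0.16 and Paxip1, a partner of PAX proteins, by -0.17, both with a standard error of 0.10. The difference of Wt1 was 0.25 without control 2, and that of Paxip1 was -0.10 without control 3. The list of CD44 and CD9 partners and signals of parietal activation held 17 genes that were not dim, with 4 higher and 13 lower and a median of -0.06, which was -0.111 without control 2 and -0.104 without control 3. Cxcr4, the receptor of the chemokine CXCL12, stood at 7.85, 7.22 and 8.28 in knockout and at 7.90, 7.90 and 8.99 in control glomeruli, a difference of -0.48 (standard error 0.46) that was -0.12 without control 3 and -0.73 without knockout 3. Egfr, Has2 and Hmmr, which encode the EGF receptor, a hyaluronan synthase and a hyaluronan receptor, were dim. Rdx, named after its values were seen, encodes radixin, which links CD44 to actin, and its 3 probe sets differed by -0.22, -0.33 and -0.19.

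In the gelsolin family, to which scinderin belongs, 3 of 4 genes were higher, with a median of 0.06 that was -0.06 without control 2. Gsn itself, gelsolin, differed by 0.16 with a standard error of 0.16, by 0.32 without control 2 and by 0.08 without control 3. Flii differed by -0.14 with a standard error of 0.043 (limma, unadjusted p = 0.0288), a small difference between arrays that hardly vary. Of the copper and ferroxidase genes around ceruloplasmin, 5 of 5 were higher with all arrays, with a median of 0.13, and the median was -0.03 without control 2. Slc40a1, which encodes ferroportin, the iron exporter that works with ceruloplasmin, stood at 6.90 on control 2 and at 9.89 to 10.65 on the others. Its difference of 0.94 with a standard error of 1.21 became -0.30 without that array and 1.57 without control 1.

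**Figure D5:**
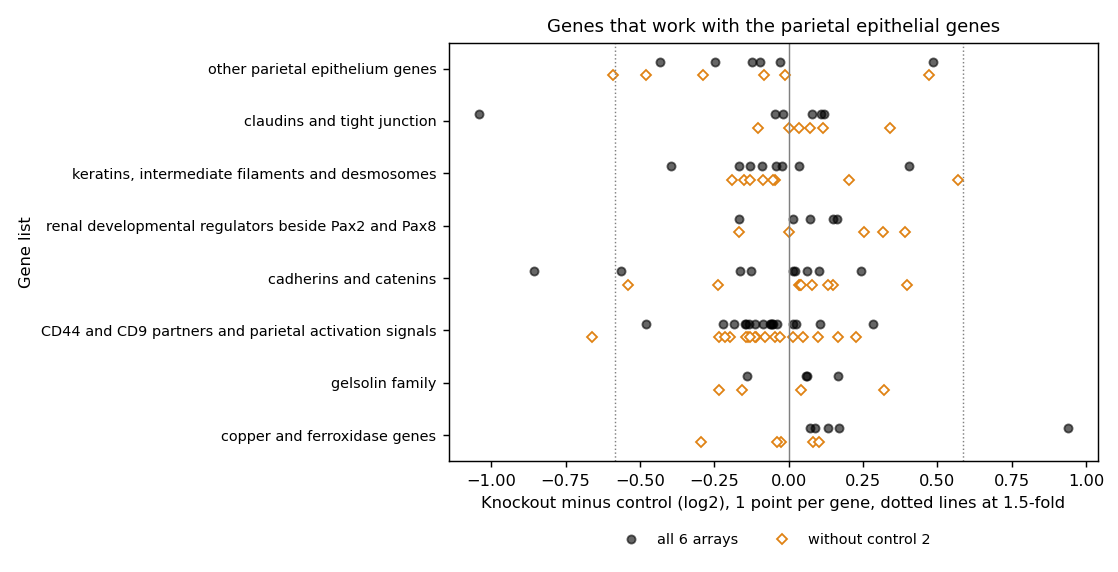
Differences between knockout and control glomeruli (log2) for the 60 genes that work with the members and were not dim, with 1 row per list and 1 point per gene, filled for all 6 arrays and open without control 2. The points past the dotted 1.5-fold lines with all arrays are those of Cldn8, Cdh1 and Slc40a1, each of which had 1 outlying control mouse.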

How the data were processed

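RNA of glomeruli from 6 mice was hybridized to Affymetrix mouse whole-genome arrays, 1 per mouse. The deposited log2 values are those the authors obtained with GCRMA (version 2.30.0), that is, after correction for a background estimated from probe sequence, quantile normalization across arrays and summarization of probes into probe sets. The raw intensities were not used here. The table gives neither counts nor detection calls, and precision is limited by the small number of mice and, for dim probe sets, by background. Probe sets whose name holds _x_at contain probes that may match other transcripts.

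Groups follow the genotype given in the labels of each array. All 45101 probe sets were fitted in R (4.3.3) using lmFit and eBayes of limma (3.58.1), two-sided, without filter or covariate, on 4 residual and 0.312 prior degrees of freedom. P values were adjusted over the whole array by the method of Benjamini and Hochberg. SAM, named in the study's methods, was written out in code, its p values being pooled over 20 permutations of 28962 varying probe sets. The procedure was tested on simulated data with the real means and spreads. A change of 1.5-fold, the limit of the criterion itself, met it in 38.0% of 50 probe sets with limma and 36.0% with SAM. For a 2-fold change it was 94.0% with either. The changed probe sets were all brighter than Scin, so these rates do not cover Scin or dim probe sets. They were drawn without regard to spread. The rates therefore need not hold for widely spread members such as Cd44 (standard errors 0.76 to 0.84). Noise was drawn for each probe set alone, so no simulated array stood apart as control 2 does. Probe sets were paired with genes by the array's annotation (34958 with 1 gene, 932 with several, 9211 with none), and coordinates are those of RefSeq on GRCm38.p6.

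The members, the lists and the rule for named genes were chosen with earlier results of these data known. Named were all members, in each list of companion genes the 2 with the largest difference among genes that were not dim and any past the criterion, in each cell type list up to 3 genes with the highest mean, and Ddn. Where a list counts genes, the probe set of highest mean stands for the gene. Alternatives were SAM, a trended and robust prior, a filter on the mean (4) or on the span (0.1), centring of arrays on all probe sets or on those that were not dim, a second quantile normalization, an offset of 16, array weights, a replicate block, a single probe set for each gene, a fold over 2 and each array left out.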

Additional observations from a re-analysis of the deposited data

How the results depend on the processing

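The count of member probe sets past the criterion was 0 and became 1 with SAM, an intensity trend with a robust prior, the filter on the mean, the filter on the span, median centring, centring on probe sets that were not dim, and the replicate block. In each of these it was Cldn1 1437932_a_at, with p from 0.0185 (filter on the span) to 0.0474 (replicate block). With 1 array left out in turn the count was 0 to 2, and the 2 without knockout 3 were Cldn1 1437932_a_at and 1450014_at. The count was 0 with quantile normalization once more (p of Cldn1 0.0564), an offset of 16 (0.0534) and array weights (0.0831). It was also 0 with 1 probe set per gene and with a fold over 2. These settings only narrow the main fit, where the count was already 0, so they could give nothing else. Cldn1 1437932_a_at passed in 8 of 16 alternatives, its difference was 0.51 to 0.90 in all of them, and the cause was not tested. The count at an adjusted p under 0.05 was 0 in all alternatives run. The median difference of the members that were not dim ranged from -0.196 without control 2 to 0.462 without control 1. Over 208 pairs of a member probe set that was not dim and an alternative, the difference changed sign in 17, of which 13 were Cp and 4 Cd44, and 7 were without control 2. None of these had met the criterion. The count of companion probe sets past the criterion was 0, and 0 to 2 with 1 array left out. The 2 without control 3 were Dsp 1435493_at (-1.37) and Cdh13 1423551_at (0.69). Deviations of same-numbered arrays correlated at 0.0949, 0.352 and 0.248, and every array correlated best with its own number in the other group. For control 1 this rested on 0.0949 with knockout 1 against 0.0943 with knockout 3. Whether replicate numbers pair the mice was thus not settled by these correlations, and the main fit treated the mice as unpaired. Array weights gave control 2 the lowest weight, 0.373. With 3 mice against 3, the intervals of all Cd44 probe sets that were not dim and of Cp 1417495_x_at, 1417496_at, 1448734_at and 1455393_at reach past 1.5-fold in both directions, those of Cldn1 1437932_a_at, Scin, Cp 1417494_a_at and 1417497_at in the higher one and that of Cp 1448735_at in the lower one. Dim members allow no comparison.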
